A study of Mus musculus with 6 samples.

Results

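The cells described here are 1950 basal keratinocytes, of 21178 cells deposited for the series, that were proposed as upper hair follicle keratinocytes. They were chosen cell by cell from their own RNA. A member had a summed level of Krt5, Krt14 and Krt15 of at least 50 UMIs (unique molecular identifiers, each standing for 1 captured RNA molecule) per 10000 UMIs of the cell. It also had at least 1 UMI of at least 3 of the 7 genes Fst, Sostdc1, Aldh3a1, Adh7, Lmo1, Ackr4 and Moxd1, called the rule genes below. Cells with 3 or more of the bulge and germ genes Lgr5, Sfrp1, Tbx1, Id4, Shisa2, Nrep and Hmcn1 were left out. So were cells with a summed level of the stress keratins Krt6a, Krt6b and Krt16 of 10 or more, or of the suprabasal keratins Krt1 and Krt10 of 50 or more, and cells with a UMI of Ptprc, of Cd3e or of both Mki67 and Top2a. Members could thus hold these keratins below the limits. The libraries held 844 and 463 members in the NO_AG mice, 369 and 172 in the AG mice, and 49 and 53 in the AG_CPI mice.

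Skin came from 6 NINJA mice aged 6 to 12 weeks, whose genome carries a neoantigen that stays silent until it is induced. All 3 groups had received 4-OH-Tam on the sampled skin, so the controls carry that treatment too. The series names NO_AG as antigen off, AG as antigen on and AG_CPI as antigen on with CPI, with 2 mice a group, and the labels do not expand CPI. Skin disease and infiltration by P14 CD8 T cells, whose receptor is a transgene, had been checked in the mice. The single-cell libraries came from the 5' chemistry of 10x Genomics.

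The upper part of the hair follicle joins the skin surface to the sebaceous gland and the bulge, and its basal cells can renew this region on their own. It is a site of contact with microbes and of exchange with skin immune cells. Follistatin (Fst) binds activins, Sostdc1 (also called ectodin or wise) binds BMPs and modulates Wnt receptors, and Aldh3a1 and Adh7 oxidise aldehydes and alcohols, retinol among them for Adh7. Lmo1 is a transcription cofactor, Ackr4 removes chemokines such as CCL19 and CCL21 from the surroundings, and Moxd1 is a monooxygenase-like protein.

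Median depth was 4828 to 7466 UMIs per member cell across the 6 libraries. Pairs of libraries shared 5 to 35 cell barcodes, at most 0.856% of the smaller library. The members of AG_CPI mouse 1 held 1 UMI of Xist and 8 of the Y-linked gene Ddx3y, while the other 5 libraries held 152 to 2813 UMIs of Xist and 0 of Ddx3y. AG_CPI mouse 1 therefore stands apart in sex-linked genes, and counts without this library are given beside the results. The summed level of a 16-gene T cell list in the members was 0.340 and 0.232 UMIs per 10000 in NO_AG, 0.666 and 6.16 in AG, then 2.52 and 1.04 in AG_CPI. That of a 13-gene myeloid and Langerhans cell list was 0.376 and 0.210, then 0.0975 and 5.59, then 4.33 and 0.393. Cd3e and Ptprc are at 0 by the rule, and every other gene of both lists had at least 1 UMI in some member. RNA of immune cells was therefore highest in AG mouse 2 and AG_CPI mouse 1.

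The proposed name was checked against 14 genes listed for the upper follicle that the rule did not use. In the comparison set of 1062 other basal keratinocytes, which passed the same limits with at most 1 rule gene, 10 of these 14 had a higher mean over libraries than in the members. Krt79, a keratin of the upper follicle, averaged 18.6 UMIs per 10000 in the members and 44.8 in the other basal cells, and was lower in the members in all 6 libraries. Cst6, a cysteine protease inhibitor, averaged 3.08 against 37.1, and was also lower in the members in every library. Defb6, a beta-defensin, averaged 17.6 against 50.4, and Krt17 averaged 11.8 against 26.5. These are values before scaling between libraries, and they describe sets defined from the same cells, so no test was made.

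Lrig1, a receptor inhibitor that marks stem cells of the follicle junction, went the other way. It averaged 1.25 in the members and 0.618 in the other basal cells and was higher in the members in all 6 libraries. Gata6 averaged 0.450 against 0.416 and Sox9 1.80 against 1.52, each higher in the members in only 4 of the 6 libraries. Against the 890 cells with 3 or more bulge genes, the members had lower means in all 16 listed bulge and germ genes, 7 of which the rule had used. Cd34, a bulge marker, averaged 0.0463 in the members and 0.954 in the bulge cells, averaged over the 5 libraries with at least 10 bulge cells. Over the same libraries the bulge cells averaged 1.21 for Lrig1 and 7.48 for Sox9, so neither gene was particular to the members. Gata6 averaged 0.0254 there. Upper follicle markers were thus split between the members and the other basal cells. Because Krt79, Cst6 and Defb6 go against the label, the cells are called Sostdc1/Aldh3a1 keratinocytes here, after genes of their rule.

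**Figure D1:**
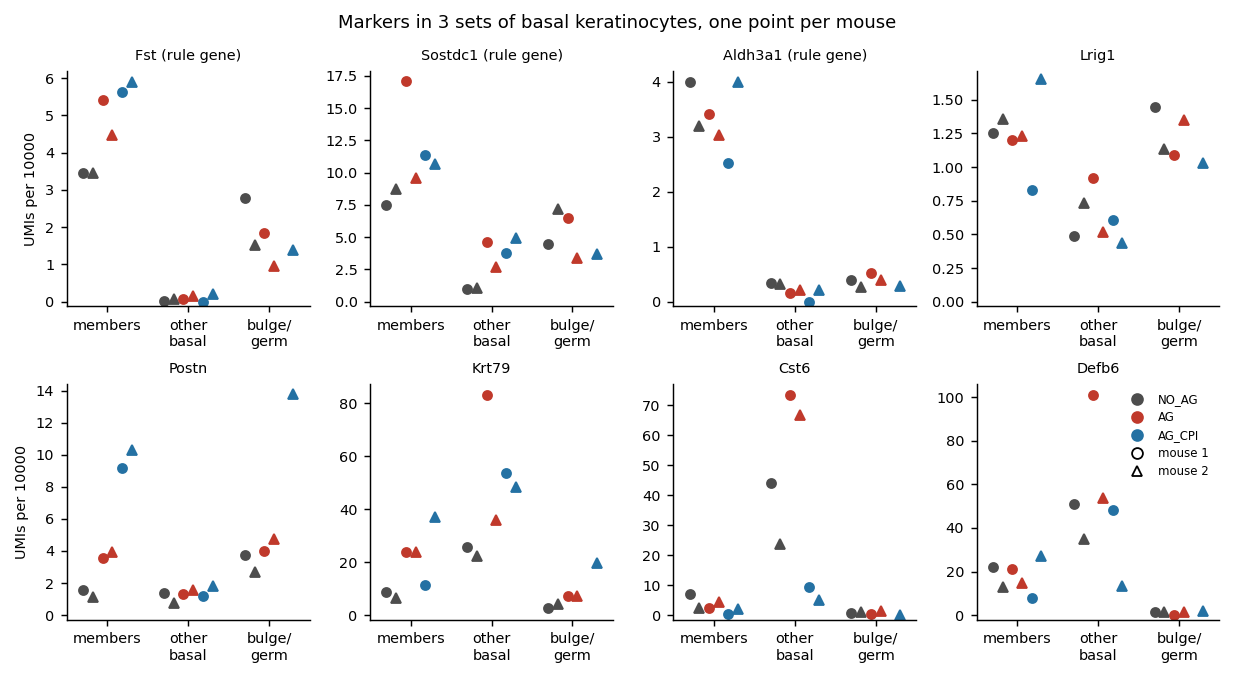
Levels of 8 genes in UMIs per 10000 before scaling between libraries, in the members, the other basal keratinocytes and the bulge and germ cells. Each point is 1 mouse, with colour for group and shape for mouse, and the 3 bulge cells of AG_CPI mouse 1 are not drawn. Krt79 and Cst6 lie lower in the members than in the other basal cells of the same mouse, while Lrig1 and Postn lie higher.

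The same genes were followed along the number of rule genes in a cell. Mean Krt79 was 42.2 UMIs per 10000 in cells with 2 rule genes, just outside the rule, 30.9 in cells with 3, just inside it, 9.87 in cells with 5 and 2.54 in cells with all 7, where AG_CPI mouse 1 has no cell and 5 libraries are averaged. AG_CPI mouse 2 went the other way at the edge of the rule, from 37.8 with 2 rule genes to 65.6 with 3 and 59.3 with 4, before 23.1 with 5. Cst6 was 14.7 with 2 rule genes, 4.23 with 3 and 2.35 with 7. Lrig1 was 0.614 with 2, 0.914 with 3 and 2.18 with 7. In these means, cells at the edge of the rule had more Krt79 and Cst6 than those at its core. There were 785 cells with 2 rule genes and 640 with 3, with median depths of 4741 and 5747.5 UMIs. Cells with all 7 numbered 116, at a median of 7715.5 UMIs, so depth moves with this grade, and its part was not tested.

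**Figure D2:**
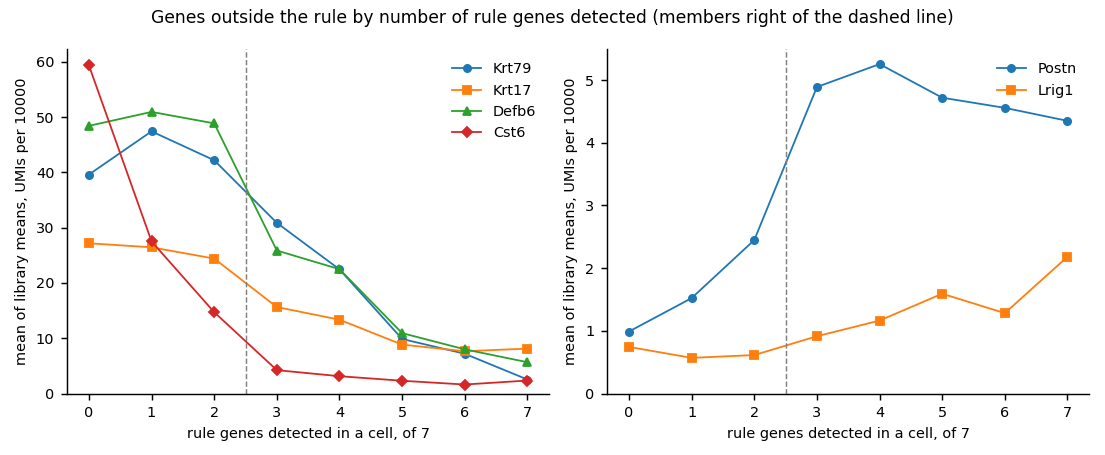
Mean of the library means, in UMIs per 10000, for 6 genes outside the rule against the number of rule genes detected in a cell, with members to the right of the dashed line. Krt79 goes from 42.2 at 2 rule genes to 2.54 at 7, while Lrig1 goes from 0.614 to 2.18.

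The rule genes themselves are a description, since they chose the cells. Sostdc1 was the most abundant, at scaled levels of 7.68 and 8.53 UMIs per 10000 in NO_AG, 17.7 and 9.47 in AG and then 11.4 and 10.5 in AG_CPI. It was detected in 74.3% and 71.5% of NO_AG members, 91.3% and 92.4% of AG members, and 93.9% and 94.3% of AG_CPI members. Adh7 was at 2.46 and 1.91 in NO_AG, 1.39 and 0.911 in AG, then 0.638 and 0.926 in AG_CPI. Fst was at 3.52 and 3.36, then 5.62 and 4.40, then 5.62 and 5.80. Aldh3a1, at 4.08 and 3.11, then 3.55 and 2.98, then 2.53 and 3.93, overlapped between all groups. Of the 7 rule genes, 0 passed the test in any of the 3 comparisons, and since they chose the cells nothing is read from their order.

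Genes outside the rule were ranked by the ratio of members to other basal cells over all 6 libraries, among those with a mean of at least 1 UMI per 10000 in the members. Postn, which encodes periostin, a secreted matrix protein, came first at 4.95 against 1.34. Its place rests on the AG_CPI mice: in NO_AG it was at 1.59 against 1.37 and 1.15 against 0.762, and over the 4 libraries without AG_CPI its ratio was 2.02, below the 2.91 of Igfbp4. Next over all libraries came Ptprs, a receptor phosphatase, at 1.23 against 0.457, and Lgals9, galectin-9, at 2.25 against 0.834. Igfbp4, which binds insulin-like growth factors, averaged 2.37 against 0.896, and Dag1, the laminin receptor dystroglycan, 1.09 against 0.513. The glutathione transferases Gstm1 and Gstm2 averaged 1.58 and 1.73 in the members against 0.819 and 0.862. All of these were higher in the members in all 6 libraries, which the way they were ranked required. The bulge cells were not lower throughout: over their 5 libraries they averaged 5.79 for Postn, 1.55 for Ptprs, 1.21 for Dag1, 2.49 for Gstm1 and 1.98 for Gstm2, all above the members, and 1.31 for Lgals9 and 2.07 for Igfbp4, below them. The other basal cells were shallower, with median depths of 1768.5 to 4660 UMIs, and those of AG mouse 2 and AG_CPI mouse 2 had median mitochondrial shares of 8.32% and 9.81%.

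The first question was whether the share of these cells differed between groups. Members made up 45.9% and 35.8% of the keratinocytes that passed the basal limits in NO_AG, 52.2% and 28.9% in AG and then 52.7% and 33.1% in AG_CPI. The groups overlapped completely, and the differences were smaller than the spread between mice of a group (two-sided exact permutation tests gave p = 1 between AG and NO_AG, p = 0.667 between AG_CPI and AG, and p = 1 between AG_CPI and NO_AG; with 2 against 2 mice p cannot go below 0.333). The Wilson 95% intervals, which cover counting error only, were 43.6% to 48.2% in NO_AG mouse 1 and 42.6% to 62.5% in AG_CPI mouse 1. With each cell thinned to 1500 UMIs before the rule was applied, the shares were 19.1% and 14.5%, then 23.4% and 13.4%, then 29.2% and 18.0%. Of all deposited cells, members were 17.0% and 11.3% in NO_AG, 10.5% and 3.69% in AG, then 2.82% and 2.40% in AG_CPI. These do not overlap between groups (exact permutation test, two-sided, p = 0.333, the smallest possible), and fewer members cannot be told apart from more cells of other kinds in the suspension.

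Switching the antigen on was compared with antigen off in the members of the 4 mice. Of 7663 genes tested, 21 rose in AG (0.274%) and 0 fell (0%), by limma on log2 of the scaled mean level plus 0.1, at a Benjamini-Hochberg adjusted p of at most 0.05; 514 genes were at an unadjusted p under 0.05. The genes that rose were led by interferon-stimulated genes. Of 17 tested genes of a type I interferon-stimulated list, 12 rose, and all 17 had both AG mice above both NO_AG mice, against 22.2% of all genes. Their median log2 difference was 1.87, against -0.02 over all genes. Genes were tested where at least 2 libraries held 10 UMIs and a mean of 0.1, and 5 of the 17 (Ifi44, Ifit1, Lgals3bp, Oas1a and Zbp1) met this in no NO_AG library, so the choice of tested genes itself placed them higher with antigen. The same holds for 9 of the 21 genes that rose and for 1.74% of all tested genes. Of the 12 list genes that met it in a NO_AG library, 8 rose and all 12 had both AG mice above both NO_AG mice. With no filter 0 genes were called. The direction depended on the setting too. With libraries weighted by cells 197 genes rose and 151 fell, and with 0.5 added before log2 16 rose and 3 fell. With no scaling between libraries 20 rose and 0 fell, and without cells holding RNA of other lineages 18 rose and 0 fell. The limma p-values measure the spread between the mice of a group.

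Ifi27l2a, an interferon-induced gene, had the smallest p. Its scaled level was 1.10 and 1.82 UMIs per 10000 in NO_AG, 19.8 and 17.7 in AG and then 7.53 and 10.5 in AG_CPI. The groups did not overlap, and both AG_CPI mice lay between the other groups. The log2 change in AG was 3.63 ± 0.243 (SE; limma adjusted p = 9.74e-04). Among members, 29.3% and 35.4% had a UMI in NO_AG and 93.0% and 90.7% in AG. Isg15, a ubiquitin-like protein that tags other proteins, was at 0.272 and 0.397 in NO_AG, 3.62 and 5.90 in AG, then 1.51 and 2.36 in AG_CPI. It rose by 3.46 ± 0.292 on the log2 scale (limma adjusted p = 0.00192), and again both AG_CPI mice lay between the other groups.

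The remaining list members that rose in AG act at several steps of the antiviral programme. Oasl2 and Oas1a belong to the family that senses double-stranded RNA, and rose by 3.08 and 1.87 on the log2 scale. Ifit1, which binds foreign RNA, was at 0.0284 and 0.0119 in NO_AG and at 0.642 and 0.777 in AG. Bst2 (tetherin), which holds budding virus at the cell surface, was at 0.200 and 0.362 in NO_AG and 2.22 and 2.57 in AG. Rtp4, a receptor transport protein, was at 0.111 and 0.184 in NO_AG and 1.78 and 1.92 in AG. Of the factors that carry the signal, Irf7 rose by 1.87 and Stat2 by 1.49. Zbp1, a nucleic acid sensor that can trigger necroptosis, rose by 1.83, and Xaf1, which opposes apoptosis inhibitors, by 1.84. Outside the list, Ifitm3, which blocks virus entry, rose from 9.0 and 11.2 to 26.6 and 27.3. Apol9b, Apol9a, Slfn2 and Phf11d also rose, by 2.34, 2.19, 2.27 and 1.79. These 4 met the limits for testing in no NO_AG library and were tested only through the antigen groups, where they are high. Reads of the near-identical pair Apol9a and Apol9b may have been divided between them.

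**Figure D3:**
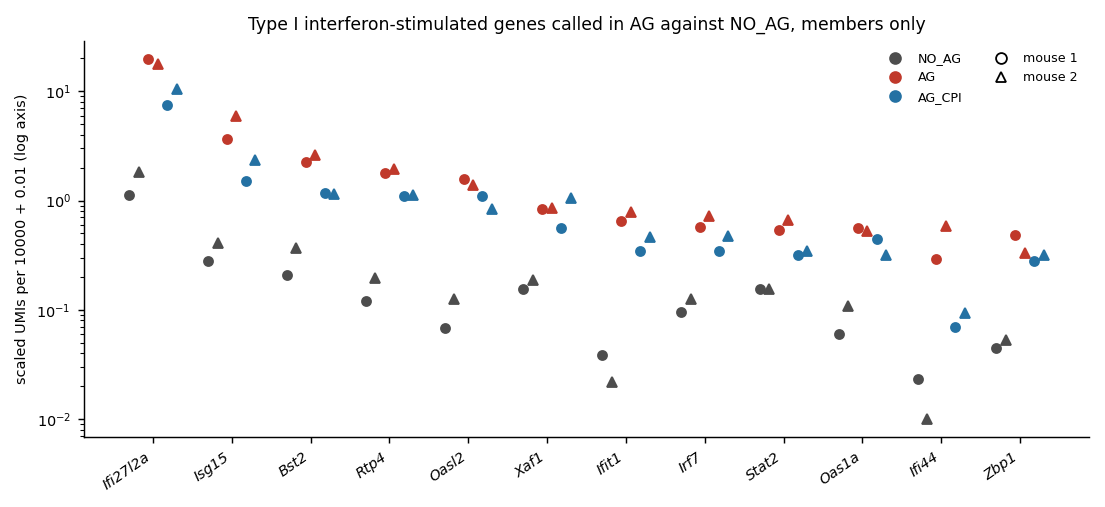
Scaled level in the members, in UMIs per 10000 plus 0.01 on a log axis, of the 12 type I interferon-stimulated genes that rose in AG. Each point is 1 mouse. The AG mice lie above the NO_AG mice for all 12 genes, and for Ifi27l2a the AG_CPI mice, at 7.53 and 10.5, lie between them.

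The start regions of these genes were read for the interferon-stimulated response element (ISRE), a DNA site of interferon-stimulated genes, because the genes moved together. The core searched was GAAA, any 2 bases and GAAA again, on both strands, in 250 bases before to 50 after each RefSeq start (build GRCm38.p6). It occurred in 3.44% of all 32851 such windows, and in 10 of the 21 windows that belong to 18 of the 21 genes that rose. By gene, 8 of these 18 had a match, against 3.70% of the tested genes with a window. The near-identical pair Apol9a and Apol9b gave 4 of the 10 windows, with the same stretch in each; without the pair, 6 of 17 windows and 6 of 16 genes had a match. The gamma-activated site GAS (TTCNNNGAA, both strands) occurred in 8.30% of all windows and in 3 of the 21. Isg15, Ifit1 and Oas1a are shown as examples with matches and Igfl3 as a gene that rose without one; each line gives the 150 bases before the start, on the gene's strand, with matches in capitals, which overlap in Isg15 and Oas1a.
Isg15: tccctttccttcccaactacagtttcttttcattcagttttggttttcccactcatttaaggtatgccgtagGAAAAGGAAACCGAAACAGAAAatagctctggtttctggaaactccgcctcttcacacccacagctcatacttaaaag
Ifit1: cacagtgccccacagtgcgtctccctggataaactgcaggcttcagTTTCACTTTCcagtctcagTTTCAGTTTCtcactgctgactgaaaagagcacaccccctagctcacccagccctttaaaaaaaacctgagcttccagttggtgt
Oas1a: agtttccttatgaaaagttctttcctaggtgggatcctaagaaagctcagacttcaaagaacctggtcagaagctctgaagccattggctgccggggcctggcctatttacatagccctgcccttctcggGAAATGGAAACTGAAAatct
Igfl3: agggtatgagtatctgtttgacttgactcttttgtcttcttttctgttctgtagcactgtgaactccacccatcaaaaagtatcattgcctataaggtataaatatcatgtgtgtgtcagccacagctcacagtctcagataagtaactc
The stretches are chr4:156200819-156200968 on the minus strand for Isg15, chr19:34640739-34640888 on the plus strand for Ifit1, chr5:120907526-120907675 on the minus strand for Oas1a and chr7:18176344-18176493 on the plus strand for Igfl3. The matches begin 78, 104 and 20 bases before the start in Isg15, Ifit1 and Oas1a. Letters alone show neither binding nor use of a site.

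A smaller set of genes outside the interferon lists also rose in AG. Igfl3, which encodes a small secreted protein of the insulin growth factor-like family, was tested only through the antigen groups, since no NO_AG library met the limits. The members of both NO_AG mice held 3 UMIs in all, against 792 in AG and 125 in AG_CPI. The pooled rate was 582-fold higher in AG (95% interval 198 to 2829) and 557-fold higher in AG_CPI (186 to 2737). These intervals treat each UMI as independent, although the UMIs came from 51 and 38 AG members and 6 and 13 AG_CPI members. The spread between cells and between mice is thus not covered by them. An Igfl3 UMI was found in 0.237% and 0.216% of NO_AG members, in 13.8% and 22.1% of AG members and in 12.2% and 24.5% of AG_CPI members. In T cells (cells with a Cd3e UMI and a basal keratin sum under 50), which should lack the gene, the shares were 0 of 1052 and 0 of 1029 cells in NO_AG (which allow shares of cells with a UMI of up to 0.285% and 0.292%, not of cells expressing the gene), 0.341% and 0.882%, then 0.250% and 0.281%, at median depths of 2331.5 to 2790 UMIs. With cells thinned to 1500 UMIs, the members' shares were 0% (which allows up to 0.355%) and 0.216%, then 8.94% and 12.8%, then 4.08% and 18.9%, and those of T cells at most 0.515%. At that common depth, the share of cells with an Igfl3 UMI was higher in members than in T cells in every antigen mouse. In AG_CPI mouse 1, with 49 members, the 4.08% lies below the 6.12% that 0 cells with a UMI would allow. RNA missed in capture is not covered by these limits.

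Krtdap, a secreted protein of differentiating keratinocytes, was at 2.87 and 1.99 in NO_AG, 9.54 and 8.80 in AG and then 6.88 and 8.83 in AG_CPI. It rose in AG by 1.89 ± 0.205 (limma adjusted p = 0.00639). Of 9 tested differentiation genes, without the Krt1 and Krt10 that the rule limits, it was the 1 that rose in AG, against 0.274% of all genes, with a list median of 0.26. Lgals7, the most abundant gene of that list, stood at 76.3 and 71.8 in NO_AG and 112 and 132 in AG and did not pass the test (limma adjusted p = 0.15). Sdr16c6, a short-chain dehydrogenase of a retinol-related family, was at 0.201 and 0.161, then 0.771 and 1.25, then 2.01 and 2.37. It was the 1 gene that rose in AG of 17 tested genes for aldehyde, alcohol and retinoid metabolism, without the rule genes Adh7 and Aldh3a1.

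Postn was at 1.62 and 1.12 in NO_AG, 3.68 and 3.88 in AG, then 9.20 and 10.1 in AG_CPI, so that the 3 groups formed steps without overlap. It also belongs to the bulge and germ list, where it was the 1 gene called among the 5 tested that the rule does not limit, against 0.274% of all genes that rose in AG. It rose in AG by 1.42 ± 0.191 on the log2 scale (limma adjusted p = 0.0235) and stood higher in AG_CPI than in NO_AG by 2.75 ± 0.191 (limma adjusted p = 0.00165). The step from AG to AG_CPI, 1.33 ± 0.191, did not pass the test (limma adjusted p = 0.334). In the other basal cells Postn was at 1.43 and 0.746, 1.40 and 1.63, and 1.06 and 1.80 in the same order. The difference of the AG_CPI against NO_AG effect between members and other basal cells was 2.36 on the log2 scale, and it did not pass the test over all genes (limma adjusted p = 0.0926).

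The AG against NO_AG count depended on single mice. Without AG mouse 2 it was 0, without AG mouse 1 it was 17, and without either NO_AG mouse it was 11, while it was 67 and 65 without AG_CPI mouse 1 and mouse 2, which enter only through the shared spread. With cells thinned to 1500 UMIs 4 genes were called.

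**Figure D4:**
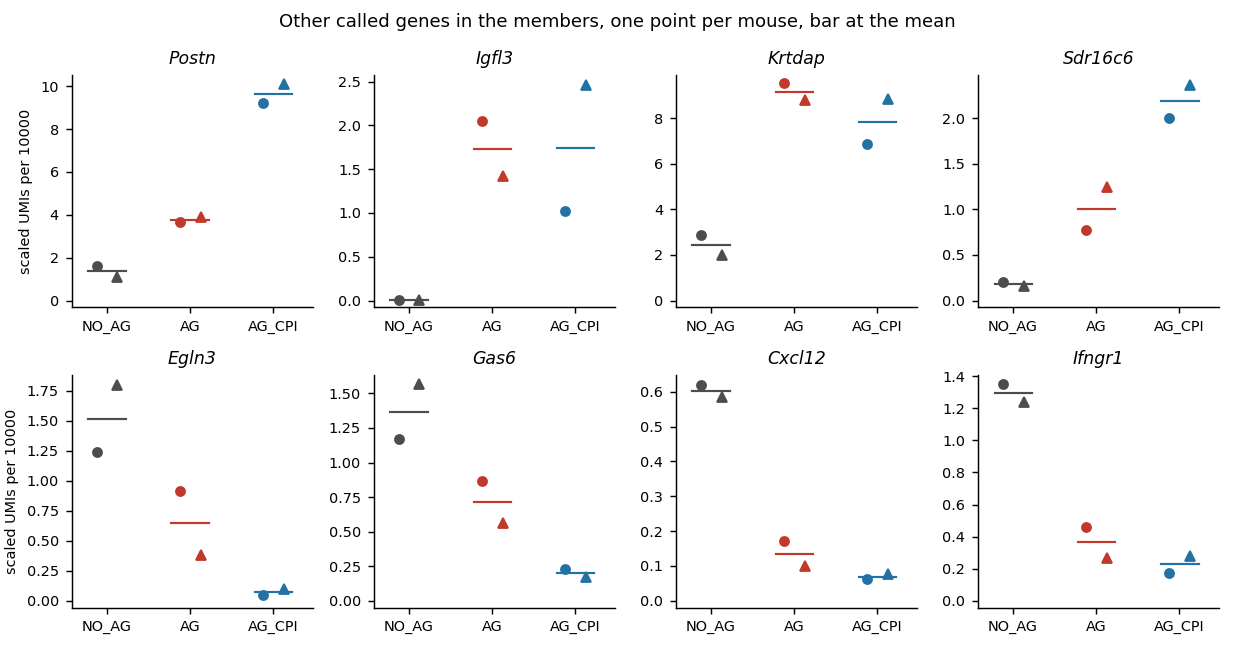
Scaled levels in the members, in UMIs per 10000, of 8 called genes outside the interferon lists. Each point is 1 mouse and each bar the mean of its group. Postn goes from 1.62 and 1.12 in NO_AG to 9.20 and 10.1 in AG_CPI, while Cxcl12 and Ifngr1 lie lower in every antigen mouse than in both NO_AG mice.

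Antigen presentation genes were next. Of 21 tested genes of an interferon-gamma response list, 0 passed the test in AG by limma, while 20 had a positive estimate and 19 had both AG mice above both NO_AG mice, against 22.2% of all genes. Their median log2 difference was 1.13. Of the 21, 2 met the limits for testing in no NO_AG library, and 17 of the other 19 had both AG mice above both NO_AG mice. Cxcl9, a chemokine for activated T cells, stood at 0.254 and 0.555, 2.64 and 2.98, and 1.97 and 0.410. Both AG mice were high for Cxcl9, and 1 of the AG_CPI mice lay within the NO_AG range.

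All 22 genes of a class I presentation list had a positive estimate in AG, with a median of 0.63, and in 17 both AG mice were above both NO_AG mice, against 22.2% of all genes, but 0 passed the test. B2m, the class I light chain, stood at 15.8 and 17.2 in NO_AG, 25.5 and 21.0 in AG, then 23 and 19.7 in AG_CPI. H2-K1 stood at 15.4 and 18.8, 26.2 and 18.9, and 20.2 and 18.6, so that AG mouse 2 lay close to NO_AG mouse 2. In class II, 7 genes were tested with a median of 1.43 and 0 called in AG. Of the 7, Ctss, also on the myeloid list, met the limits for testing in no NO_AG library, which favoured its sign. Cd74, the invariant chain, stood at 2.44 and 3.18 in NO_AG, 6.65 and 14.9 in AG and then 11.6 and 15.8 in AG_CPI. The summed myeloid list was 0.376 and 0.210 in NO_AG, 0.0975 and 5.59 in AG and then 4.33 and 0.393 in AG_CPI, and its part in the class II values was not tested. H2-Eb1, a class II beta chain, stood at 0.610 and 0.674, then 1.69 and 3.71, then 2.74 and 2.24.

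The immediate early and heat shock genes, which respond quickly to stimulation and to tissue handling, leaned the other way. Of 20 tested, 19 had a negative estimate in AG and 18 had both AG mice below both NO_AG mice, against 23.5% of all genes, with a median of -0.79 and 0 called. Jun stood at 7.19 and 5.84 in NO_AG, 3.80 and 1.85 in AG, then 3.62 and 3.24 in AG_CPI. Fos stood at 6.78 and 4.42, 2.58 and 1.52, and 3.53 and 3.88. Of 18 basement membrane and adhesion genes tested, leaving out Krt5, Krt14 and Krt15 of that list because they enter the rule, 16 had a negative estimate and 0 were called, with a median of -0.36. As a description of the rule's own keratins, Krt15 stood at 63.0 and 67.4, 30.5 and 14.6, and 29.7 and 21.7, while Krt14 stood at 86.2 and 93.5, 141 and 80.7, and 124 and 106. All 10 cycling genes tested besides Mki67 and Top2a had a positive estimate in AG, with a median of 0.73 and 0 called, in cells from which those with both Mki67 and Top2a had been removed. Of these 10, Ccna2, Ccnb1, Cdk1 and Rrm2 met the limits for testing in no NO_AG library, so the choice of tested genes favoured their sign.

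**Figure D5:**
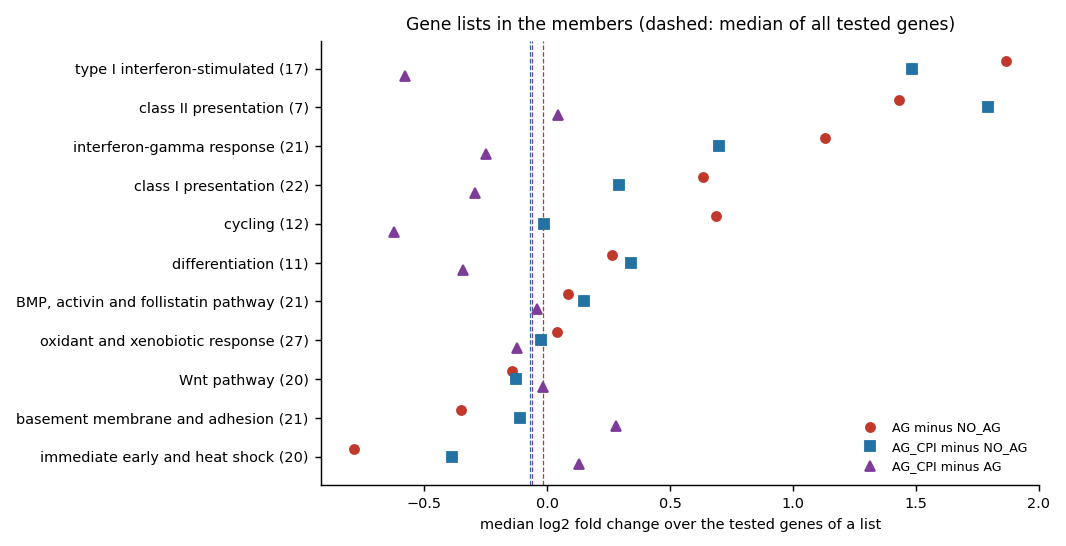
Median log2 difference over the tested genes of 11 lists in the members, for the 3 comparisons, with the number of tested genes in brackets and dashed lines at the median of all tested genes; genes that the rule used are kept in the lists drawn. The type I interferon-stimulated list lies farthest to the right in AG minus NO_AG, at 1.87, and the immediate early and heat shock list farthest to the left, at -0.79.

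For the pathways of the rule genes, counts near 0 are what the shares of all genes give (0.274% higher and 0% lower in AG), so nothing particular to them is read. Of 19 tested genes for BMP, activin and follistatin signalling, without the rule genes Fst and Sostdc1, 0 passed in any comparison, and the median in AG was 0.01. Id3, a target of BMP signalling, stood at 1.66 and 1.57 in NO_AG, 1.63 and 0.697 in AG and then 0.848 and 0.269 in AG_CPI. The receptor gene Bmpr1a stood at 0.525 and 0.413, 0.454 and 0.597, and 0.513 and 0.441, with full overlap. Of 19 tested Wnt pathway genes, without the Sfrp1 that the rule limits, 0 passed, with a median of -0.15 in AG; the ligand gene Wnt4 stood at 0.812 and 0.827, 0.929 and 0.577, and 1.24 and 0.725. Of 27 genes for the response to oxidants and foreign compounds 0 passed, and Prdx1, a peroxide-removing enzyme, stood between 10.1 and 12.0 in all 6 mice.

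The effect of CPI in the presence of antigen was tested as AG_CPI against AG. By limma 0 of 7663 genes rose (0%) and 0 fell (0%), with 847 at an unadjusted p under 0.05. Of the 17 type I interferon-stimulated genes 16 had a negative estimate, with a median of -0.58, and in 13 both AG_CPI mice were below both AG mice, against 21.6% of all genes. In the opposite direction, 14.3% of all genes had both AG_CPI mice above both AG mice, and 0 of the 17 did. Ifi44 was among the 13 and met the limits for testing in no AG_CPI library. Of all 3040 such genes, both AG_CPI mice lay below both AG mice in 896 and above them in 297. The choice of tested genes thus leaned towards lower values without fixing the order. Bst2, which met the limits, stood at 2.22 and 2.57 in AG and 1.17 and 1.14 in AG_CPI (log2 difference -0.99 ± 0.235, limma adjusted p = 0.368). Without AG_CPI mouse 2 the count was 453, and it was 0 without each of the other 5 mice in turn. A gene that misses the test is not shown to be equal in AG_CPI and AG.

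AG_CPI was also compared with NO_AG, which shares the NO_AG mice with the first comparison. By limma 31 genes rose (0.405%) and 20 fell (0.261%), with 1095 at an unadjusted p under 0.05. The balance of rises and falls depended on the setting. With libraries weighted by cells 15 rose and 8 fell, but with 1 added before log2 20 rose and 21 fell. Falls also outnumbered rises with either AG_CPI mouse left out, in fits that rest on a lone AG_CPI mouse. The main fit is used below. Of the 17 type I interferon-stimulated genes 9 rose, 6 of them among the 12 that met the limits for testing in a NO_AG library, with a median of 1.48 against -0.07 over all genes, and 16 had both AG_CPI mice above both NO_AG mice, against 19.5% of all genes. Isg15 was higher by 2.21 ± 0.292 (limma adjusted p = 0.0156) and Ifi27l2a by 2.57 ± 0.243 (limma adjusted p = 0.00364), next to 3.46 and 3.63 in AG. The list member Lgals3bp, a secreted glycoprotein, rose from 0.0755 and 0.0549 in NO_AG to 0.661 and 0.364 in AG_CPI, with 0.447 and 0.407 in AG.

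Other genes that rose in AG_CPI included Sdr16c6, Krtdap, Sgk1 and Fbln1. Sdr16c6 was higher by 3.03 ± 0.247 (limma adjusted p = 0.00314) and Krtdap by 1.66 ± 0.205 (limma adjusted p = 0.0156). Sgk1, a kinase induced by glucocorticoids and stress, was at 1.02 and 0.772 in NO_AG, 2.29 and 1.89 in AG, then 2.70 and 2.64 in AG_CPI. Fbln1, the matrix protein fibulin-1, was at 0.119 and 0.113, 0.394 and 0.513, and 0.737 and 0.579. Both were above the NO_AG range in all 4 antigen mice. Car12, a carbonic anhydrase, was at 0.651 and 0.692, 1.13 and 1.59, and 2.08 and 2.10. Dbp, a clock output transcription factor, was at 0.0608 and 0.0771, 0.156 and 0.227, and 0.474 and 0.642. Adgrg7, an adhesion G protein-coupled receptor, was at 0.0177 and 0.0144, then 0.244 and 0.355, then 0.341 and 0.590. Cd74 and H2-Eb1 rose in this comparison, by 2.24 and 1.80, and both belong to the interferon-gamma and the class II lists. They were the 2 called of 21 and of 7 tested genes, where 0.405% of all genes rose. The 2 tested myeloid list genes, Ctss and Lyz2, also had both AG_CPI mice above both NO_AG mice. These 2 met the limits for testing in no NO_AG library, and their part was not tested.

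Of the 20 genes that fell in AG_CPI, 13 met the limits for testing in no AG_CPI library, against 39.7% of all tested genes. Among all 3040 such genes, both AG_CPI mice lay below both NO_AG mice in 1207 and above them in 319. The choice of tested genes thus leaned towards lower values there without fixing them. Of those named here the 13 include Cxcl12, Egln3, Gas6, Pyy, Ak4, Akr1c18, Arhgap29, Cdc42ep3, Creb5, Hbb-bs and Nrtn. Of the 31 that rose, 10 met the limits in no NO_AG library, Adgrg7 and Dbp among them. Among the genes that fell in AG_CPI were Cxcl12, Cxcl14, Ifngr1, Egln3 and Gas6. Cxcl12, a chemokine that retains stem and immune cells, was at 0.620 and 0.585 in NO_AG, 0.172 and 0.0989 in AG and then 0.0614 and 0.0768 in AG_CPI. It fell by 2.06 ± 0.256 on the log2 scale (limma adjusted p = 0.0156), and all 4 antigen mice lay below both NO_AG mice. Cxcl14, a chemokine of resting epithelium, was at 2.93 and 4.21, 2.45 and 0.763, and 0.651 and 0.302, and fell by 2.72 ± 0.477 (limma adjusted p = 0.0494). These were the 2 called among 16 tested epithelial cues to immune cells, without the rule gene Ackr4, where 0.261% of all genes fell; Ccl27a, a skin-homing chemokine and the most abundant of them, stood at 16.1 and 20.1, 16.7 and 4.32, and 6.29 and 9.36 without passing. Il33, an alarmin, stood at 0.457 and 0.618, 0.106 and 0.0548, and 0.234 and 0, also without passing.

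Ifngr1, the ligand-binding chain of the interferon-gamma receptor, was at 1.35 and 1.24 in NO_AG, 0.461 and 0.269 in AG, then 0.175 and 0.280 in AG_CPI. It fell by 2.11 ± 0.271 in AG_CPI (limma adjusted p = 0.0156), and the AG estimate of -1.62 missed the threshold (limma adjusted p = 0.0583). Egln3, an oxygen-sensing prolyl hydroxylase and a target of hypoxia-inducible factors, was at 1.24 and 1.80, 0.911 and 0.379, and 0.0472 and 0.0986. It fell by 3.22 ± 0.362 (limma adjusted p = 0.0115), and Ak4, a mitochondrial adenylate kinase, fell by 1.58. Gas6, the ligand of the TAM receptors that mediate uptake of dying cells, was at 1.17 and 1.56, 0.870 and 0.565, and 0.232 and 0.174. Both Egln3 and Gas6 formed 3 steps without overlap, in the order NO_AG, AG, AG_CPI. Pyy, a peptide hormone, was at 0.353 and 0.688 in NO_AG, at most 0.0726 in AG, and had 0 UMIs in the members of both AG_CPI mice.

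Of the remaining genes that fell, Atf3 was the 1 called among 20 immediate early and heat shock genes, against 0.261% of all genes, at 1.81 and 1.36 in NO_AG and 0.675 and 0.452 in AG_CPI. Btg2, an antiproliferative gene, fell by 1.62, the GTPase effector Cdc42ep3 by 2.00, the transcription factor Creb5 by 1.96, and Pnrc1, a nuclear receptor coregulator, by 1.05. Nrtn, a neurotrophic ligand, fell by 1.45, Akr1c18, a steroid reductase, by 3.33, Pdzk1ip1 by 2.50 and Arhgap29 by 1.52. Hbb-bs, a globin gene of red blood cells, fell by 1.78, from 0.258 and 0.364 to 0.0409 and 0. Over all genes, 28.4% had both AG_CPI mice below both NO_AG mice. Leaving out NO_AG mouse 1 or 2 gave 19 and 14 called genes in AG_CPI against NO_AG, leaving out AG mouse 1 or 2 gave 22 and 18, leaving out AG_CPI mouse 1 gave 137 and AG_CPI mouse 2 gave 830. With cells thinned to 1500 UMIs 1 gene was called.

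Finally, each effect was compared between the members and the other basal keratinocytes of the same mice. By limma on the difference of log2 levels, 0 of 7134 genes (0%) had an effect that differed, in each of the 3 comparisons, with 56, 839 and 813 genes at an unadjusted p under 0.05 for AG against NO_AG, AG_CPI against AG and AG_CPI against NO_AG. Isg15 in the other basal cells was at 0.236 and 0.327 in NO_AG, 6.34 and 7.19 in AG and then 1.61 and 1.5 in AG_CPI, and Ifi27l2a at 1.16 and 2.06, 24.7 and 19.1, and 8.76 and 3.96. Igfl3 in those cells was at 0 and 0.0213, 0.767 and 2.25, and 1.07 and 2.00. All 3 genes thus stood higher in every antigen mouse than in both NO_AG mice in this set too. Cxcl12 stood at 0.120 and 0.196 in the other basal cells of NO_AG, lower than in the members of both NO_AG mice, and at 0.111 and 0.117 in AG and 0 and 0.583 in AG_CPI. A difference that misses this test does not show that the 2 sets respond alike. The other basal cells of AG_CPI numbered 28 and 68, and cells with RNA of other lineages were 147 of 213 in AG mouse 2 and 53 of 68 in AG_CPI mouse 2; the part of either was not tested. Without AG_CPI mouse 1 or 2, the AG_CPI against AG difference was called for 1007 and 1929 genes and that of AG_CPI against NO_AG for 876 and 2008.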

How the data were processed

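Skin cells of 6 mice were measured as single-cell RNA. Cell Ranger 3.1 and build mm10 are named in the submitters' processing notes; further steps are not given in the sources used here. The deposited unit was read from the values: a log10 scale on which 1 had been added to each gene's UMIs per 10000 in its cell, since this returned whole UMIs for 100% of values (tolerance 0.05). UMIs per cell in the deposited tables ranged from 1501 to 14995. The tests had been planned for raw counts, and limma replaced the count model for these log10 values.

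Back on the linear scale, each gene was averaged over the members of a mouse, and TMM factors (trimmed mean of M-values) were applied before taking log2 of the level plus 0.1. Genes needed 10 UMIs and a mean of 0.1 in at least 2 libraries. All 6 mice entered a limma-trend fit (limma 3.58.1, R 4.3.3) with group as its term, with Benjamini-Hochberg adjustment over all tested genes and calls at 0.05. Effects were compared between cell sets on the difference of log2 levels within a mouse. No doublet caller was run. The limits on Ptprc, Cd3e and suprabasal keratins left members with RNA of other lineages: 111 of 844 and 65 of 463 in NO_AG, 53 of 369 and 58 of 172 in AG, and 9 of 49 and 9 of 53 in AG_CPI. Without these cells 18 genes were called in AG against NO_AG and 57 in AG_CPI against NO_AG. Shares were tested by exact permutation. The fit was tested on simulated data.

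The members, comparisons and 27 gene lists were chosen with earlier results of these data known. Of 486 listed genes, 470 have a column. Named genes are, per comparison, up to 15 called genes a direction with the smallest p whose groups do not overlap, the called and most abundant list members, the rule genes and the 20 genes with the largest ratio of members to other basal cells among those with a mean of at least 1 UMI per 10000 in members and higher in every library; Il33, Id3, Bmpr1a and a few others were named after their values were seen. Receptor segments, sex-linked, mitochondrial and ribosomal genes were left out of that rule.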

Additional observations from a re-analysis of the deposited data

How the results depend on the processing

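Settings were a pseudocount of 0.5 or 1, no filter on low values, no scaling between libraries, summed UMIs, libraries weighted by cells, cells thinned to 1500 UMIs, at least 2 or 4 rule genes, no upper limits, removal of cells with RNA of other lineages, cell filters, a replicate block and each mouse left out. Fits of the 2 compared groups alone and the rule applied to thinned cells were chosen after seeing the data. Where a mouse is left out, the lone mouse of its group is assumed to vary like the other groups. Signs were followed for the 45 results of called genes with the smallest p, and none of these changed sign in a setting where it was fitted; other named genes were not followed. The cause of the shifts below was not tested. They include direction: in AG against NO_AG, 0 of the 21 genes fell, but 151 of 348 did with weights and 14 of 66 with 2 groups alone. AG against NO_AG (21 genes) gave 0 with no filter, 348 with weights, 4 with thinned cells, 10 with the rule on thinned cells and 66 with 2 groups alone, and 0 to 67 with a mouse left out. AG_CPI against NO_AG (51) gave 0 with no filter, 23 with weights, 1 with thinned cells, 22 with at least 4 rule genes, 26 with the rule on thinned cells and 18 with 2 groups alone, and 14 to 830 with a mouse left out. AG_CPI against AG (0) gave 0 in all of these but with a mouse left out, where it ranged from 0 to 453.

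The difference between members and other basal cells (0 in each comparison) gave, for AG against NO_AG, 17 with weights and 0 to 1 with a mouse left out. For AG_CPI against AG it gave 1 with weights, 2 with no upper limits and 0 to 1929 with a mouse left out. For AG_CPI against NO_AG it gave 2 at a pseudocount of 0.5 and of 1, 4 with summed UMIs, 11 with weights, 6 with no upper limits and 0 to 2008 with a mouse left out. With the replicate number as a block, 33 genes were called in AG against NO_AG, 45 in AG_CPI against NO_AG, and 3 for the difference in AG_CPI against NO_AG. Deviations of same-numbered mice correlated at -0.13, -0.03 and 0.00. With 2 mice a group, these values do not settle whether the numbers pair the mice.

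The share of members among basal keratinocytes differed by -0.30 percentage points in AG against NO_AG, but by 1.60 with the rule on thinned cells, by 3.09 with at least 2 rule genes and by -11.9 to 11.3 with a mouse left out. AG_CPI against AG differed by 2.36, but by -1.46 with at least 2 rule genes, -4.50 of all deposited cells and -9.29 to 14.0 with a mouse left out. AG_CPI against NO_AG differed by 2.05, but by -3.38 with no upper limits, -11.5 of all deposited cells and -7.73 to 11.8 with a mouse left out. Of these 45 results, 5 kept their call of 43 fitted with thinned cells and 45 with no scaling.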
